A study of Homo sapiens with 16 samples.

Results

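The 8 libraries described here came from HEK293 cells, an established line of human embryonic kidney origin, that carried 1 of 4 cloned transcripts of LINC01016, a long non-coding RNA gene. Libraries of transcripts T1 and T2 (4 libraries, called T) were set against libraries of transcripts CU1 and CU2 (4 libraries, called CU), 8 of the 16 libraries of the series, chosen by their labelled transcript. T1, T2, CU1 and CU2 had 2 libraries each, numbered 1 and 2, and the empty vector had 2. The labels do not say what T and CU stand for or how the transcripts differ in sequence.

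All groups shared the host cell, a Lipofectamine reagent as the carrier, 60 mm plates and RNA collection 48 hours later. The labels give 5 µg for the plasmids with a transcript, cloned in pcDNA3.0, and no amount for the empty vector. The T1, T2, CU1 and CU2 plasmids held 1 transcript each and the empty vector held none. Levels are transient and come from a plasmid in a cell line in which the submitters describe the gene as silent, and the labels give no share of transfected cells. Totals ran from 15468756 to 17255935 counts per library over T, CU and empty vector. Nothing in the labels says that libraries were separate cultures, so p-values measure the spread between these libraries. Libraries of a transcript also share its plasmid, so they are not independent replicates of T or of CU. The HEK293 label was checked against 8 genes known in this line (intermediate filament, cadherin and kidney developmental genes). All 8 passed the filter on low counts, with summed levels of 2736 to 3152 CPM (read counts scaled to a common library size) in T and 2641 to 3211 CPM in CU. Of 6 marker lists of other cell types, keratinocyte markers had the highest summed level (77.8 to 89.1 CPM over 8 genes in T and 72.1 to 84.5 CPM in CU). Fibroblast markers were at 46.3 to 57.2 CPM over 10 genes in T and 52.95 to 58.3 CPM in CU, and germ cell markers at 20.2 to 25.3 CPM over 24 genes in T and 20.9 to 25.6 CPM in CU. Leukocyte and erythroid, endothelial and hepatocyte markers stayed at or below 6.01 CPM in T and 4.67 CPM in CU. T and CU overlapped in each of these lists.

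Long non-coding RNAs are transcribed and often spliced like messenger RNAs but carry no long open reading frame, and many are studied for effects on other genes, on nearby genes or as binding partners of proteins and microRNAs. Alternative transcripts of 1 such gene can hold different exons and thus different binding sites. LINC01016 is known as an estrogen-responsive transcript in breast and endometrial cancer cells. The comparison of T with CU asks whether cells that carry the 2 kinds of transcript differ in the RNA of any other gene.

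LINC01016 lies on the minus strand of chromosome 6 at 33867506 to 33896914 (GRCh38). On the other strand lies ENSG00000233183, an antisense gene at 33891327 to 33927631 for which the supplied names hold no symbol. The exons of the 2 genes share 862 bases in 3 blocks. The stretch below is shown because it lies in an exon of LINC01016 and, read on the opposite strand, inside an exon of the antisense gene. It belongs to 4 of the 5 transcripts of LINC01016 in GENCODE release 29, whose transcript sequences it was read from (chr6:33892310-33892451, minus strand, GRCh38, 142 bases). Whether T1, T2, CU1 or CU2 hold it is not given in the sources used here.
LINC01016 shared exon: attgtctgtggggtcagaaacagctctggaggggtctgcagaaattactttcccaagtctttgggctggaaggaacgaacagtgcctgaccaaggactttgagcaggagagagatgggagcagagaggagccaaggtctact

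LINC01016 itself did not separate the T from the CU libraries. It was at 6575 and 6303 CPM in the T1 libraries, 5233 and 4812 CPM in T2, 10760 and 6275 CPM in CU1, and 3058 and 2620 CPM in CU2. The empty vector libraries held 1 and 0 counts. All 4 T libraries lay within the range of the CU libraries, above both CU2 libraries and below CU1 replicate 1. Means were 5731 ± 843 CPM in T and 5678 ± 3760 CPM in CU (SD, n = 4 each), a ratio of 1.01 (2-sided exact permutation p = 0.971 over 70 arrangements). On the log2 scale the fitted T minus CU difference was 0.05 ± 0.50 (SE), with a 95% interval from -1.23 to 1.33. That value was 1.02 without transcript CU1. It changed sign without T1 replicate 2, without either CU2 library and without transcripts T1 or CU2, and the interval allows more than a 2-fold difference in dose either way.

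The antisense gene was at 484.7, 441.3, 357.8 and 309.6 CPM in T and at 356.2, 188.4, 89.2 and 95.2 CPM in CU, against 2 and 0 counts in the empty vector libraries. Only CU1 replicate 1 reached into the range of T. The log2 difference was 1.16 ± 0.51 (edgeR, unadjusted p = 0.0702, Benjamini-Hochberg adjusted p = 1), and the 2-sided exact permutation p was 0.0571. The log2 difference ran from 0.60 without transcript CU2 to 2.11 without transcript CU1. As a share of the LINC01016 count in the same library, a measure chosen after the values were seen, the antisense count was 6.91% ± 0.388 in T and 3.22% ± 0.325 in CU (SD, n = 4 each). Every T library, at 6.44 to 7.37%, lay above every CU library, at 2.92 to 3.63%. The 4 libraries of the 2 other transcripts with names that begin with CU1 are in neither group. There the share was 8.08 and 4.36% in CU1ENC and 6.38 and 4.02% in CU1ENU, so it differed between replicates. CU1ENC replicate 1 lay above the range of T, CU1ENU replicate 1 just below it, and both replicate 2 libraries between CU and T. The ratio of 2.15 between T and CU ranged from 2.06 to 2.25 when a library or a transcript was left out. Its 2-sided exact permutation p of 0.0286 is the smallest that 70 arrangements allow, and 0.0556, the smallest of 36 arrangements, was reached within replicate numbers. These arrangements move libraries of a transcript singly, although they share a plasmid. The p-values thus do not measure the spread between transcripts of a kind. Over the 3 measures of this locus the adjusted permutation p was 0.0856 (0.0834 within replicate numbers), so the difference did not pass. Which molecules gave the antisense counts was not tested, and counting used strand.

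**Figure D1:**
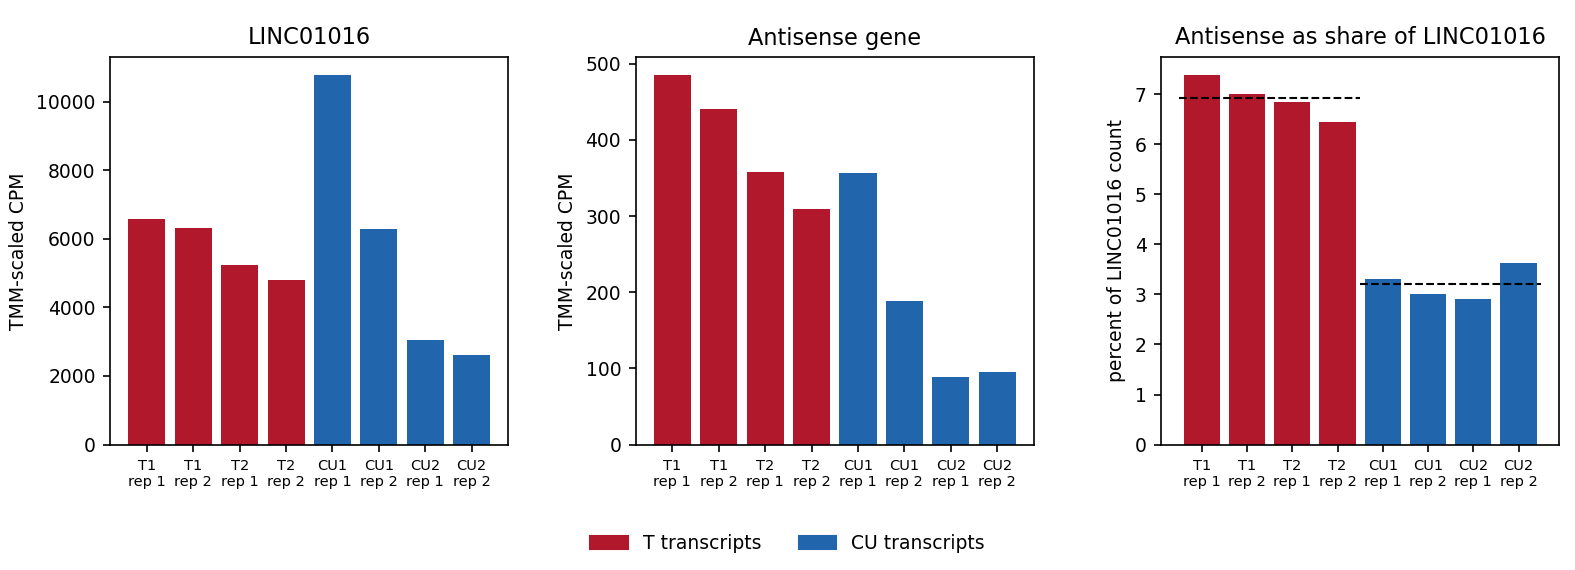
Levels of LINC01016 and of the antisense gene in TMM-scaled CPM, and the antisense count as a percent of the LINC01016 count, in each T library (red) and CU library (blue). Dashed lines are group means, and the share lies at 6.44 to 7.37% in T and 2.92 to 3.63% in CU while the LINC01016 levels overlap.

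No gene, LINC01016 and its antisense gene included, passed the test between T and CU. Of 17655 genes tested with edgeR's quasi-likelihood test with replicate number as a block, 0 had a Benjamini-Hochberg adjusted p under 0.05 (0%). At an unadjusted p under 0.05 there were 510 genes (2.89%), of which 307 were higher in T (1.74%) and 203 lower (1.15%). DESeq2 with the same block also called 0 genes, with 242 at an unadjusted p under 0.05. All 4 T libraries lay beyond all 4 CU libraries for 222 genes (1.26%), 118 with T higher (0.668%) and 104 with T lower (0.589%).

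The size of difference that the 8 libraries leave room for was bounded for most genes. Among 10796 genes with a mean of at least 10 CPM, the approximate 95% interval of the T to CU ratio lay inside 2-fold for 99.6% and inside 1.5-fold for 99.3%. Over all 17655 genes, 93.6% of intervals lay inside 2-fold. The fit takes libraries that share a plasmid as separate replicates, so the intervals bound these libraries and not T and CU transcripts at large. The median absolute log2 difference was 0.0564 and the median SE was 0.085.

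The replicate number accounted for more variation than the kind of transcript. In genes of at least 10 CPM, T or CU took 4.3% of the sum of squares of log2 CPM, the difference of T1 from T2 took 8.92%, that of CU1 from CU2 took 7.92%, and replicate number took 58.6%. Per degree of freedom, T or CU (mean square 0.00854) was below the unexplained rest (0.0134). On principal components, only the fifth, with 8.93% of the variance, kept T (-21.16 to -1.132) apart from CU (3.892 to 14.14). Across the same 10796 genes, T minus CU in the replicate 1 libraries and T minus CU in the replicate 2 libraries had a Pearson r of 0.0265 and the same sign for 50.2%. These values are across genes, which are not independent replicates.

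**Figure D2:**
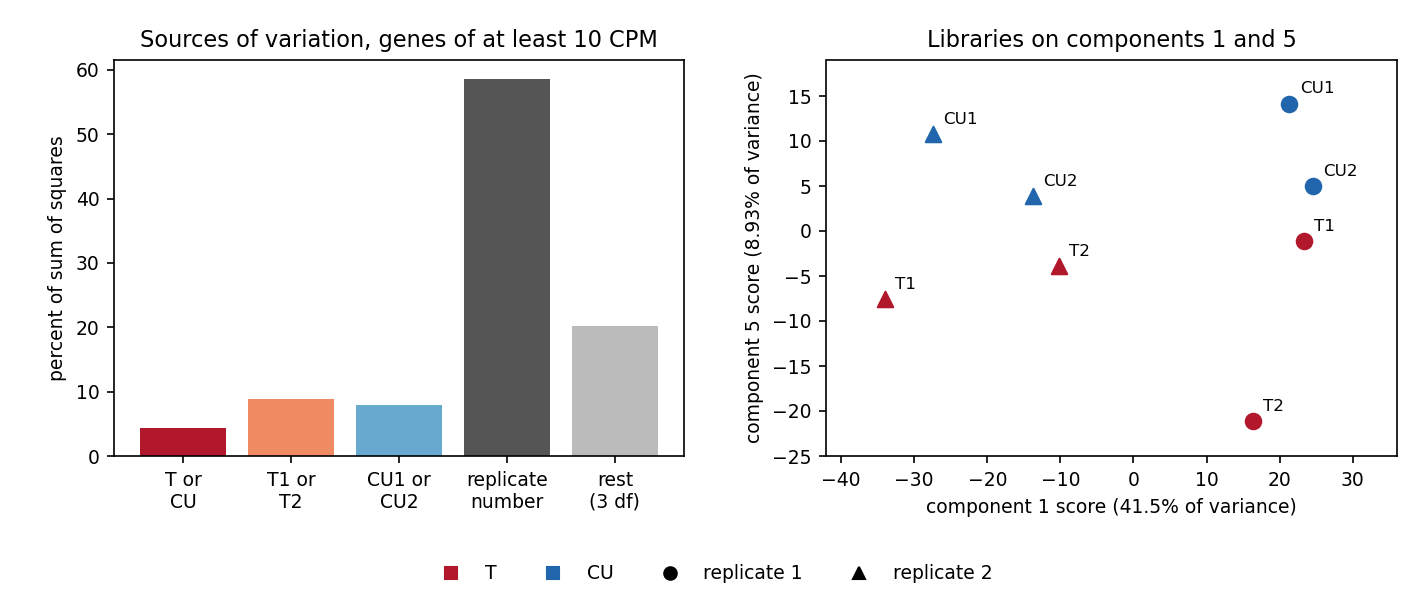
Left, percent of the sum of squares of log2 CPM by source in genes of at least 10 CPM. Right, each library on principal components 1 (41.5% of variance) and 5 (8.93%), with T in red, CU in blue, circles for replicate 1 and triangles for replicate 2. Replicate number has the tallest bar at 58.6% against 4.3% for T or CU, and component 5 puts the 4 T libraries below the 4 CU libraries.

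The genes with the lowest unadjusted p among those whose groups did not overlap are given as values, since each had an edgeR adjusted p of 1 and the lack of overlap was part of how they were picked. EXOSC4, a subunit of the RNA exosome that trims and degrades RNA, was at 18.8, 18.7, 17.8 and 18.4 CPM in T and at 13.2, 14.7, 13.8 and 16.7 CPM in CU. The empty vector libraries held 15.9 CPM, within the range of CU, and 16.9 CPM, between the 2 groups. Its log2 difference was 0.34 ± 0.09 (SE), with a 95% interval from 0.16 to 0.52. FSD1, which codes for a microtubule-associated protein, averaged 27.9 ± 1.57 CPM in T and 23.8 ± 0.888 CPM in CU (SD, n = 4 each), a log2 difference of 0.23 ± 0.07. Its empty vector mean of 27.0 CPM was close to that of T.

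COX17, the copper chaperone of cytochrome c oxidase, averaged 29.9 ± 2.36 CPM in T and 26.1 ± 2.62 CPM in CU, against an empty vector mean of 31.4 CPM. Its count is uncertain, since 17.6% of its exonic bases lie in exons of another gene on the same strand. TMEM30A-DT (log2 difference 0.63 ± 0.20), a divergent transcript, SIVA1 (0.17 ± 0.05), a regulator of apoptosis, AP4M1 (0.25 ± 0.08), a subunit of the adaptor complex AP-4, and ZBTB14 (0.23 ± 0.08), a zinc finger transcription factor, also had higher values in T. AP4M1 averaged 25.01 ± 1.93 CPM in T and 21.1 ± 2.12 CPM in CU (SD, n = 4 each). Its empty vector libraries held 23.7 CPM, within the range of T, and 19.6 CPM, within the range of CU. Where the empty vector libraries lay thus differed between the genes described here.

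Among the 8 genes with lower values in T, HSPA2, an HSP70 chaperone best known from male germ cells, was at 46.8, 45.2, 45.6 and 48.4 CPM in T and at 51.7, 53.9, 49.1 and 56.5 CPM in CU. The highest T library and the lowest CU library were less than 1 CPM apart. MSH3, a DNA mismatch repair protein, averaged 41.7 ± 1.44 CPM in T and 46.9 ± 2.12 CPM in CU, a log2 difference of -0.17 ± 0.06. PTPN14, a tyrosine phosphatase of the Hippo pathway, averaged 63.3 ± 0.919 CPM in T and 69.2 ± 2.49 CPM in CU, a log2 difference of -0.13 ± 0.05. SUSD4, a complement regulator, had a log2 difference of -0.40 ± 0.13 and TIGD6, derived from a DNA transposon, one of -0.30 ± 0.12. ZNF618, a zinc finger protein, had one of -0.14 ± 0.05. KRTCAP2, an oligosaccharyltransferase subunit (-0.66 ± 0.17), and PCDHGA11, a gamma-protocadherin (-0.36 ± 0.13), are uncertain, since 18.5% and 37.5% of their exonic bases lie in exons of another gene on the same strand.

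Among lists of at least 13 tested genes, those with the highest medians toward T were of the ribosome, of small nucleolar RNA hosts and of the respiratory chain, by less than 0.1 on the log2 scale and with 0 members passing. Over all 17655 genes the median T minus CU difference was -0.000115 and 49.9% were above 0. Of 79 cytosolic ribosomal protein genes, 76 were above 0 with a median of 0.08, and 19 had an unadjusted p under 0.05, all higher in T, against 1.74% of all genes. The median was 0.14 in the replicate 1 libraries and 0.02 in the replicate 2 libraries. Summed over the list, levels were 61360, 59390, 67750 and 61380 CPM in T and 57580, 62170, 60050 and 56870 CPM in CU. CU1 replicate 2 exceeded 3 of the 4 T libraries, and the groups overlapped.

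Within the list, RPS12, a protein of the small ribosomal subunit, was at 451, 437, 514 and 448 CPM in T and at 372, 433, 428 and 425 CPM in CU. All 4 T libraries were higher, T1 replicate 2 only by a margin smaller than the spread within either group, and CU1 replicate 1 was the lowest. The log2 difference was 0.16 ± 0.05 (edgeR, unadjusted p = 0.00963, adjusted p = 1). RPL27A, of the large subunit, had a log2 difference of 0.12 ± 0.04 and overlapping groups. Ribosomal protein genes have many processed pseudogenes, and how reads fitting several places were counted is not stated.

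Of 15 small nucleolar RNA host genes, whose introns carry the guide RNAs of ribosomal RNA modification, 13 were above 0 with a median of 0.10 (0.10 in replicate 1 and 0.08 in replicate 2). An unadjusted p under 0.05 was reached by 6, all higher in T, against 1.74% of all genes. GAS5, a host gene linked to growth arrest, was at 141.9, 135.5, 138 and 115.6 CPM in T and at 118.1, 105, 125.2 and 121.8 CPM in CU. T2 replicate 2 lay within the CU range, and the log2 difference was 0.17 ± 0.05. ZFAS1 had a log2 difference of 0.20 ± 0.07 and SNHG8 one of 0.20 ± 0.07. Without the T1 libraries the median of the list was -0.000655.

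Genes of the translation machinery are known for a terminal oligopyrimidine tract, a run of C and T at the start of the transcript through which their translation follows growth signals. The 30 bases around the annotated start of RPS12, RPL27A and ZFAS1 are shown because such runs are frequent in the ribosomal protein and host gene lists, and those of NDUFB6, from the respiratory chain list, for comparison. They are from RefSeq (GRCh38.p14), 10 bases before the start and 20 from it, with a run of at least 5 pyrimidines beginning within 5 bases of the start in capitals.
RPS12 (chr6:132814559-132814588, plus strand): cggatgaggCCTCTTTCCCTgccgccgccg
RPL27A (chr11:8682782-8682811, plus strand): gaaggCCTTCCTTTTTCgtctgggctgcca
ZFAS1 (chr20:49278632-49278661, plus strand): gccattcgTTCTTTCgcgtctgcggtgccc
NDUFB6 (chr9:32573140-32573169, minus strand): ggcgctcggcgTTCCCgcaaggtcgctttg

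A run of this kind, searched on the strand that reads like the RNA, was found at 40 of 63 ribosomal protein genes with an entry (63.5%) and at 10 of 13 small nucleolar RNA host genes (76.9%). It was found at 21 of 62 respiratory chain genes (33.9%), against 23% of 12301 tested genes with an entry. The match describes the letters in this window and no activity.

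Nuclear-encoded subunits of the respiratory chain and ATP synthase were above 0 for 68 of 76 genes, with a median of 0.08 (0.15 in replicate 1 and 0.01 in replicate 2). Of the 76, 16 had an unadjusted p under 0.05, all higher in T, against 1.74% of all genes. NDUFS5, a complex I subunit, was at 124, 121.9, 141.9 and 131.9 CPM in T and at 108.1, 128.4, 109.2 and 113.1 CPM in CU. CU1 replicate 2 lay among the T libraries. NDUFB6, also of complex I, had a log2 difference of 0.17 ± 0.06 and ATP5F1E, a subunit of ATP synthase, one of 0.16 ± 0.05. The 13 protein-coding genes of the mitochondrial genome leaned the other way, with 12 below 0 and a median of -0.12 (-0.08 in replicate 1 and -0.15 in replicate 2). Of the 13, 4 had an unadjusted p under 0.05, all lower in T, against 1.15% of all genes. Their median was -0.02 without transcript T2 and -0.19 without transcript T1. MT-ND5, a complex I subunit, was at 941, 713, 854 and 716 CPM in T and at 886, 877, 1022 and 809 CPM in CU. The groups overlapped, the empty vector libraries (1157 and 670 CPM) spanned both, and the log2 difference was -0.16 ± 0.05 (edgeR, adjusted p = 1). Mitochondrial messages made up 1.10 to 1.51% of counts in T, 1.25 to 1.65% in CU and 1.09 to 1.89% in the empty vector. With tested genes divided into 4 groups by exonic length, the shortest group had a median T minus CU of 0.02 and the longest one of -0.02. The 3 lists that leaned toward T had median lengths of 2930, 2400 and 4842 bases (ribosomal protein, respiratory chain and host genes), against 4573 over all genes. Under 22 alternatives, a fit with a gene length offset among them, the ribosomal protein median ran from 0.02 to 0.14. The respiratory chain median ran from 0.01 to 0.15, and the host gene median from -0.000655 (without transcript T1) to 0.13. How large a part transcript length had in these medians was not tested.

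**Figure D3:**
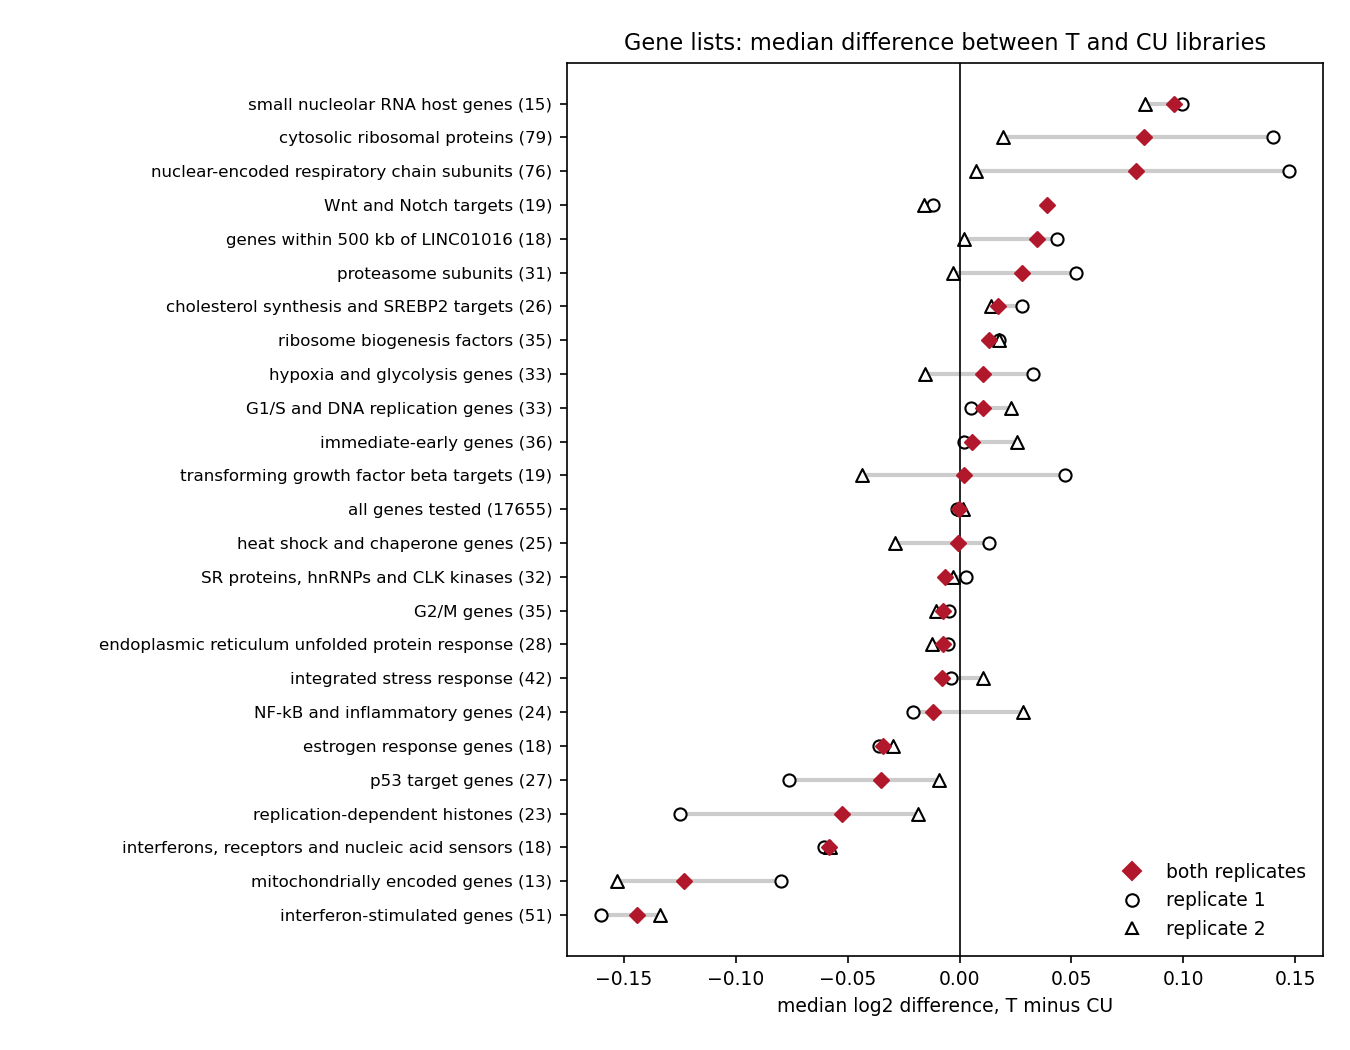
Median log2 difference, T minus CU, of each gene list with at least 13 tested genes (number in parentheses), over both replicates (red diamonds), in replicate 1 (circles) and in replicate 2 (triangles). Medians over both replicates lie between -0.14 and 0.10, and for ribosomal protein and respiratory chain genes the 2 replicate numbers lie far apart.

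**Figure D4:**
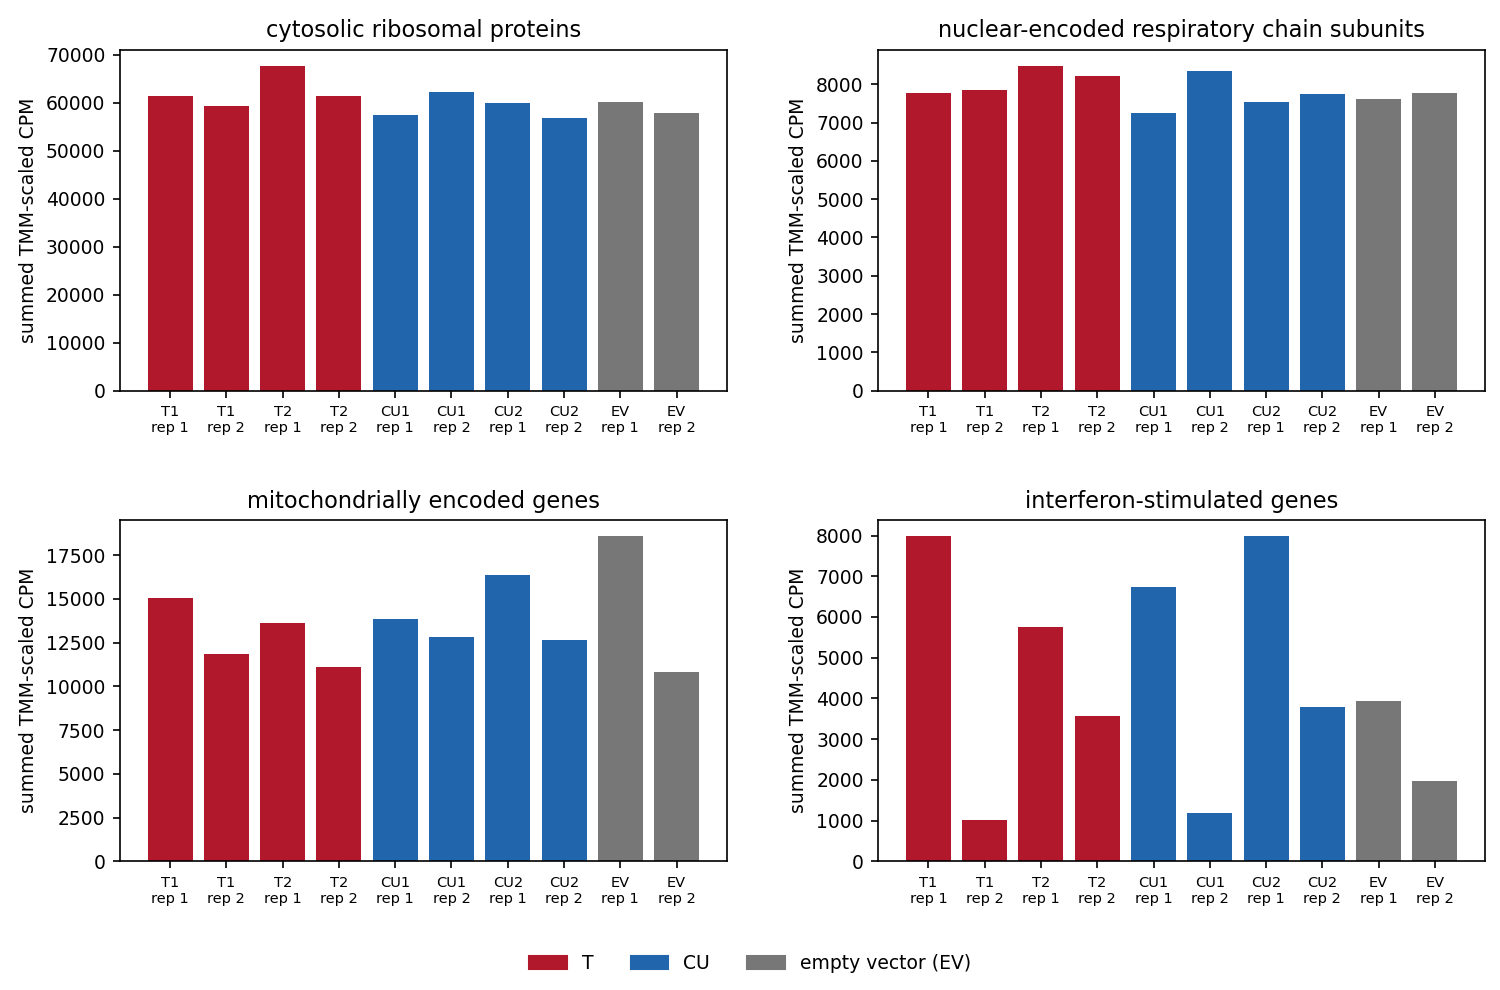
Summed TMM-scaled CPM of 4 gene lists in each T library (red), CU library (blue) and empty vector library (grey). T and CU overlap in all 4 panels, and interferon-stimulated genes run from 1006 to 7977 CPM in T and from 1192 to 7978 CPM in CU.

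Interferon-stimulated genes, the antiviral set that interferon switches on, had the lowest median among lists of at least 13 tested genes, -0.14 over 51 genes, with 1 above 0 and 0 at an unadjusted p under 0.05. Their summed level was 7977, 1006, 5757 and 3574 CPM in T and 6746, 1192, 7978 and 3783 CPM in CU, against 3946 and 1972 CPM in the empty vector. In T1, T2, CU1 and CU2 alike, replicate 1 was above replicate 2, by over 5-fold in T1 and CU1. The mean of 4579 ± 2980 CPM in T and 4925 ± 3050 CPM in CU (SD, n = 4 each) differed by far less than that spread. GBP1, an interferon-induced GTPase, was at 10.3, 0.885, 6.52 and 3.14 CPM in T and at 9.46, 1.14, 13.1 and 6.22 CPM in CU. The median turned to 0.38 without the CU2 libraries and was -0.51 without the CU1 libraries. CXCL10, an interferon-induced chemokine, was at or below 1.78 CPM in all 8 libraries. ISG20, an interferon-induced exonuclease, had a log2 difference of -0.23 ± 0.15.

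Programs of stress and growth stayed close to 0 in the median. The integrated stress response had a median of -0.01 over 42 genes, with 2 at an unadjusted p under 0.05, both higher in T, against 1.74% of all genes. SHMT2, a mitochondrial enzyme of one-carbon metabolism, was at 222, 228, 214 and 230 CPM in T and at 207, 207, 208 and 220 CPM in CU. CU2 replicate 2 lay within the T range, and the log2 difference was 0.09 ± 0.04. TRIB3, a pseudokinase induced by this response, had a log2 difference of 0.12 ± 0.06. Medians were -0.01 for 28 unfolded protein response genes, -0.000733 for 25 heat shock and chaperone genes, -0.04 for 27 p53 targets and 0.01 for 36 immediate-early genes.

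Of 24 NF-kB and inflammatory genes, 10 were above 0. BIRC2, an inhibitor of apoptosis and ubiquitin ligase in this pathway, was at 62.4, 63.2, 67.1 and 62.2 CPM in T and at 56.9, 57.9, 59 and 56.5 CPM in CU. All 4 T libraries were higher, with empty vector libraries of 58.8 and 58.1 CPM in the range of CU, and the log2 difference was 0.15 ± 0.05 (edgeR, unadjusted p = 0.0086, adjusted p = 1). NFKB1, a subunit of the transcription factor itself, leaned the other way at -0.14 ± 0.06. In the cell cycle, G1/S genes had a median of 0.01 over 33 genes and G2/M genes one of -0.01 over 35. MKI67, the proliferation marker, was at 313, 318, 302 and 313 CPM in T and at 324, 328, 340 and 332 CPM in CU. All 4 T libraries were lower, and the log2 difference was -0.09 ± 0.04 (edgeR, unadjusted p = 0.0339, adjusted p = 1).

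Estrogen response genes had a median of -0.03 over 18 tested of 22, with 13 below 0, and 0 at an unadjusted p under 0.05. Cholesterol synthesis genes had a median of 0.02 over 26, with 20 above 0. FDPS, which makes farnesyl diphosphate, had a log2 difference of 0.10 ± 0.05. Replication-dependent histones had a median of -0.05 over 23 tested of 42 in the table, and H2BC18 was at 2.71, 2.78, 2.67 and 2.09 CPM in T and at 3.93, 3.22, 3.3 and 3.24 CPM in CU. Histone messages without a poly(A) tail are measured according to how libraries were made, which the labels do not give in full. Of 34 genes within 500 kb of LINC01016, 18 were tested, with a median of 0.03, 12 above 0 and 0 passing. HMGA1, a chromatin protein among them, had a log2 difference of 0.08 ± 0.04. Of 24 germ cell markers only 3 passed the filter on low counts, and 5 were at 0 in all 10 libraries.

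Whether T and CU differed in a way that depended on replicate number was tested by the interaction of the 2, and 1 gene passed (0.00566%). CD81-AS1, an antisense transcript that shares 30 exonic bases with CD81, was at 8.76, 27.8, 11.2 and 27.7 CPM in T (T1 replicates 1 and 2, then T2 replicates 1 and 2) and at 18.7, 25.6, 20.6 and 21.3 CPM in CU. It was lower in T than in CU in replicate 1 and higher in replicate 2, with a log2 interaction of 1.22 ± 0.18 (edgeR, adjusted p = 0.0104). The call was lost without T1 replicate 1 (1.06, edgeR adjusted p = 0.0933), CU2 replicate 1 (1.15, edgeR adjusted p = 0.235) or CU2 replicate 2 (1.10, edgeR adjusted p = 0.179), with a value of similar size. CD81, a tetraspanin of the cell surface, had an interaction of 0.34 ± 0.09 (edgeR, adjusted p = 0.9997), and ATP5MF, an ATP synthase subunit, one of -0.54 ± 0.11.

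The 2 transcripts within a kind were also set against each other. T1 against T2 gave 28 genes (0.159%) with an edgeR adjusted p under 0.05, 21 higher in T1 (0.119%) and 7 lower (0.0396%), where CU1 against CU2 gave 0 genes, with 780 (4.42%) at an unadjusted p under 0.05. In DESeq2 the counts were 20 for T1 against T2 and 1 for CU1 against CU2. Whether the 2 contrasts differ was not tested. The genes named here were chosen after their values were seen. MAFF, a small Maf transcription factor and immediate-early gene, was at 31.6 and 44.4 CPM in T1 and 21.6 and 23.4 CPM in T2, against 26.2, 27.8, 26.7 and 35.9 CPM in CU. Both T1 libraries were above both T2 libraries, and the CU libraries lay between or among them, with a log2 T1 minus T2 difference of 0.75 ± 0.10 (edgeR, adjusted p = 0.000113). DESeq2 gave MAFF no adjusted p, so it is not among the 20 genes called there. The MAFF difference was 0.60 without T1 replicate 2 and 0.64 without T2 replicate 2, and MAFF passed in neither of these fits. FOS (0.74 ± 0.16) and JUN (0.28 ± 0.06), the partners in the AP-1 transcription factor, and MT-RNR1 (0.42 ± 0.06), the small ribosomal RNA of mitochondria, were also higher in T1. BMF, a pro-apoptotic BH3-only protein, was lower in T1 by a log2 difference of -0.48 ± 0.10. For all 28 genes, which were picked by the gap between T1 and T2, the mean of CU lay between those of T1 and T2, and T minus CU ran from -0.12 to 0.10. In a fit of 8 group means over 16 libraries 1 gene passed, MAFF (edgeR adjusted p = 0.0417), and MT-RNR1 did not (0.43 ± 0.32, edgeR adjusted p = 0.809). Without the replicate block 0 passed. The count depended on single libraries: it was 0 without T1 replicate 2, 2 without T2 replicate 2, 17 and 18 without either CU2 library, 45 without CU1 replicate 1, 89 without T2 replicate 1 and 133 without T1 replicate 1.

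Against the empty vector, T and CU share the same 2 control libraries, so the 2 contrasts are given side by side. Of 18819 genes, 0 passed in T against empty vector, with 888 (4.72%) at an unadjusted p under 0.05, and 0 passed in CU against empty vector, with 848 (4.51%). LINC01016 itself was among the genes that did not pass in this fit (edgeR adjusted p = 0.609 for T and 0.619 for CU), in spite of 1 and 0 counts in the control libraries. In DESeq2, 2 genes passed in each contrast, LINC01016 and its antisense gene, with adjusted p of 1.81e-24 and 8.39e-22 in T and 2.64e-24 and 1.45e-17 in CU. In a fit of 8 group means over all 16 libraries, edgeR called both genes for T (adjusted p = 0.000311 and 0.0389) and LINC01016 alone for CU (0.000339).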

How the data were processed

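RNA of HEK293 cells was counted by gene. The authors deposited whole-number counts without normalization, made per the file headers with featureCounts 2.0.1 on paired reads, strand option 2 and the exons of Ensembl release 101 summed by gene. Per the submitters' processing notes HISAT2, DESeq2 and GRCh38.p13 were also used, versions and settings not given in the sources used here. Groups and replicate numbers came from sample titles, and columns were matched to samples by description. Reads shared by overlapping or near-identical genes make those counts uncertain.

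T was compared with CU by edgeR 4.0.16 (R 4.3.3), with the quasi-likelihood F-test, robust shrinkage, TMM scaling and replicate number as a block, over 8 libraries after filterByExpr (minimum count 10, minimum total 15). Contrasts within T and within CU used 4 transcript means, and those with empty vector used 10 libraries. Benjamini-Hochberg adjustment covered all tested genes at a threshold of 0.05. The SE is the absolute log2 fold change over the square root of F, so intervals are approximate. CPM are TMM-scaled over 10 libraries (factors 0.979 to 1.02). DESeq2 1.42.0 was an alternative, with others of scaling, filter, block, gene length and libraries left out.

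Deviations from the group means correlated between libraries of the same number in each of 6 group pairs (r 0.3 to 0.524, median 0.369). On this ground, which rests on the data and no label, the libraries were treated as paired. Common dispersion was 0.00443 with the block and 0.0136 without. Libraries of a group differed beyond sampling noise (chi-square per degree of freedom 6.21 to 17).

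The members and the 32 gene lists were chosen with earlier results of these data known. Named genes are the 2 of the locus, the 8 of lowest p in each direction (mean log2 CPM over 1, a gene symbol, no overlap between T and CU), up to 3 of lowest p per list and 3 for the interaction. Members whose counts overlap other genes most, or whose lists are given by median, are not described, and some results are not reported here.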

Additional observations from a re-analysis of the deposited data

Results flagged for a closer look

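Among 148 sets of 4 libraries examined for named genes and lists, 12 had 1 library standing apart from the other 3, where chance gives about 5% of such sets. In T, ATP5MF was high in T2 replicate 1 at 124 CPM (others 98 to 102 CPM), COX17 in T1 replicate 2 at 33.5 CPM, and NFKB1 in T1 replicate 2 at 48.6 CPM. NDUFB6 was low in T1 replicate 1 at 73.4 CPM (others 84.9 to 85.7 CPM), SUSD4 in T2 replicate 2 at 5.37 CPM, and H2BC18 in T2 replicate 2 at 2.09 CPM.

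In CU, H2BC18 was high in CU1 replicate 1 at 3.93 CPM and RPS12 was low there at 372 CPM (others 425 to 433 CPM). CU2 replicate 2 was high for MAFF at 35.9 CPM, SHMT2 at 220 CPM and SLC30A1, a zinc exporter, at 88.9 CPM. ZBTB14 was high in CU2 replicate 1 at 18.3 CPM.

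The T to CU difference of CD81-AS1 differed between the replicate numbers by the interaction test, with a log2 value of 1.22. It was of similar size but did not pass when T1 replicate 1 or either CU2 library was left out. What the replicate numbers mark is not given in the labels.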

How the results depend on the processing

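The count of 0 genes between T and CU stayed at 0 under DESeq2, its size factors, no low-count filter, a gene length offset and fits of 4 and of 8 group means. With the 13 mitochondrially encoded genes and LINC01016 removed before filtering and scaling, and so not tested, the count was 0 as well. It also stayed at 0 without each library and without transcript CU1 or CU2. It was 3 without transcript T1 (MT-ND1, MT-ND4L and the mitochondrial pseudogene MTND2P28, all lower in T2 than in CU) and 1 without transcript T2 (MT-RNR1, higher in T1 than in CU); the cause was not tested. The LINC01016 difference was -0.14 without transcript T1, -0.54 without transcript CU2, 1.02 without transcript CU1 and 0.23 in both fits of group means, and ran from -0.21 to 0.56 without single libraries; it was -0.09 without T1 replicate 2, and -0.18 and -0.21 without CU2 replicates 1 and 2. Without the replicate block, T against CU kept 0 calls, with 200 at an unadjusted p under 0.05 against 510 in the paired fit, and T1 against T2 had 0 calls.

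T1 against T2 gave 102 calls with no low-count filter, 1 over 16 libraries and 0 to 133 without single libraries. CU1 against CU2 gave 1 with DESeq2, 1 with no filter and 0 to 3 without single libraries. The interaction gave 7 with no filter and 0 to 3 without single libraries. T against empty vector gave 2 with DESeq2, 1 with no filter, 2 over 16 libraries and 0 to 1 without single libraries, and CU against empty vector gave 2, 5, 1 and 0.

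Of 59 genes named for T against CU, other than the 2 of the locus, 57 kept their sign under the alternatives run for genes. These alternatives do not include single replicate numbers. Of the 59, 0 passed under any of these alternatives (lowest edgeR or DESeq2 adjusted p = 0.194). The 59 leave out MT-RNR1, which passed without transcript T2, and MT-ND1 and MT-ND4L, which passed without transcript T1. ISG20 was 0.038 and GBP1 0.085 without transcript CU2. Of 26 list medians, 7 kept their sign throughout; ribosomal protein genes ran from 0.02 to 0.14, respiratory chain genes from 0.01 to 0.15 and mitochondrially encoded genes from -0.19 to -0.02. Depth limits scarce genes more: intervals lay inside 2-fold for 93.6% of all genes and for 99.6% of those of at least 10 CPM.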
